A study of Mus musculus with 19 samples.

Results

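Microglia sorted from the hippocampus of CK-p25 mice were compared with microglia of CK control littermates. The comparison uses 6 of the 19 samples of the series, 3 RNA sequencing libraries per group, and they were chosen by their labels alone. CK-p25 mice carry the CK driver and an inducible p25 transgene, and CK mice carry the driver without p25. Both groups were Cx3cr1CreER+/-, so the controls carried the tamoxifen-inducible Cre too, and both had wild-type PU.1 alleles. All animals received tamoxifen at 50 mg/kg on 5 days at the start of p25 induction, at 3 months of age, and brains were taken 6 weeks later, at 4.5 months. A further group of 3 libraries in the same table, in which PU.1 was deleted from microglia of CK-p25 mice, entered only the shared estimate of the spread and the mean level that decided which genes were tested. Nothing in the labels ties the 3 libraries of a group to different animals. The p-values therefore refer to the variation among these libraries, and some of it may be technical.

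CK stands for the CaMKII promoter, which drives the transgene in forebrain neurons and not in microglia. The p25 protein is a truncated activator of the kinase Cdk5, and its induction leads to neuron death in the forebrain. Microglia, the resident macrophages of the brain, respond to dying neurons by losing surveillance receptors, clearing debris through the lysosome, and secreting chemokines, growth factors and complement. The Cx3cr1CreER allele replaces a copy of Cx3cr1, the microglial fractalkine receptor gene, so its level in both groups comes from the remaining copy. As a model, the transgene is confined by its promoter to forebrain neurons, and the RNA measured here is that of the sorted microglia.

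The sorted cells carried the defining markers of microglia in all 6 libraries. The 13 markers summed to 31789 to 34894 FPKM in CK and 29686 to 34348 FPKM in CK-p25 (FPKM, a read level corrected for transcript length and library size). Within these sums 5 markers were called higher and 5 lower, or 3 and 8 under quantile normalization (median log2 difference -0.20 and -0.78). Spi1, Itgam, Ptprc and Cx3cr1 check the sort and the genotype. Ptprc, which encodes CD45, measured 66.7, 56.8 and 58.9 FPKM in CK and 111, 106 and 155 FPKM in CK-p25. Itgam, which encodes CD11b, measured 502, 514 and 473 FPKM in CK and 415, 443 and 293 FPKM in CK-p25. The CK-p25 libraries were higher for Ptprc and lower for Itgam with no overlap, and Itgam did not pass the test (limma adjusted p = 0.0801). Cx3cr1 fell, from 1249, 1163 and 1141 to 737, 530.0 and 600.0 FPKM (log2 difference -0.94 ± 0.25 SE, adjusted p = 0.0232). Spi1 measured 256, 229.7 and 251 FPKM in CK and 251, 208 and 298 FPKM in CK-p25, and the groups overlapped. The call of Cx3cr1 was lost without any 1 CK library (adjusted p = 0.0783, 0.0705 and 0.0649 without replicates 1, 2 and 3) and without CK-p25 replicate 2 (0.0703).

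In bulk RNA, fewer cells of a type and less RNA per cell cannot be told apart. Markers of other cells were lower than those of microglia, and some lists differed between the groups or in 1 library. Astrocyte sums were 59.2 to 91.5 FPKM in CK and 105.5 to 408 FPKM in CK-p25, with all 8 markers positive and 1, Gfap, called higher (1.36, 4.13 and 2.72 against 27.6, 203 and 32.03 FPKM). B cell sums were 29.9 to 35.7 FPKM in CK and 57.2 to 77.5 FPKM in CK-p25, and the 2 markers tested went in opposite directions. Cd22 was higher (3.57, 3.43 and 2.65 against 49.5, 41.6 and 58.2 FPKM). The other had a log2 difference of -0.63 and was not called, though 1 marker was called lower when only the 6 compared libraries were fitted. The higher sum is therefore not a rise of the list as a whole. NK cell sums were 8.66 to 16.1 FPKM in CK and 2.38 to 4.77 FPKM in CK-p25, with Klrd1 lower (16.02, 8.48 and 8.62 against 0.293, 1.41 and 0.708 FPKM) and Klrb1c higher (0.03805, 0.0615 and 0 against 2.06, 1.41 and 1.68 FPKM). The 8 border macrophage markers summed to 7.86 FPKM in CK replicate 1, to 288 and 338 FPKM in the other CK libraries and to 130.4 to 188 FPKM in CK-p25. None of the 8 was called by limma, and none had an unadjusted p under 0.05. The neutrophil markers summed to 844 FPKM in CK-p25 replicate 2 and to at most 125 FPKM elsewhere, and that library was also highest for the neuron, astrocyte, oligodendrocyte, monocyte and endothelium lists. Among these, limma called 1 oligodendrocyte and 1 monocyte marker higher, and neither list had a call without CK-p25 replicate 2. Of 5 endothelium and pericyte markers tested, 2 were higher and 1, Pecam1, lower (log2 -2.29), with the same counts without that library. Dissociation response genes summed to 2518 FPKM in CK-p25 replicate 3, and to 1011 to 1196 FPKM in the other libraries. CK-p25 replicate 3 comes from another set of read files than the rest. It had 42.1% of genes listed at 0, against 31.6% to 36.4% in the other 5 libraries, and correlated with the other CK-p25 libraries at 0.887 and 0.911. The part of these marker and library differences in the results below was not tested, and results that rest on 1 library are given with and without it.

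**Figure D1:**
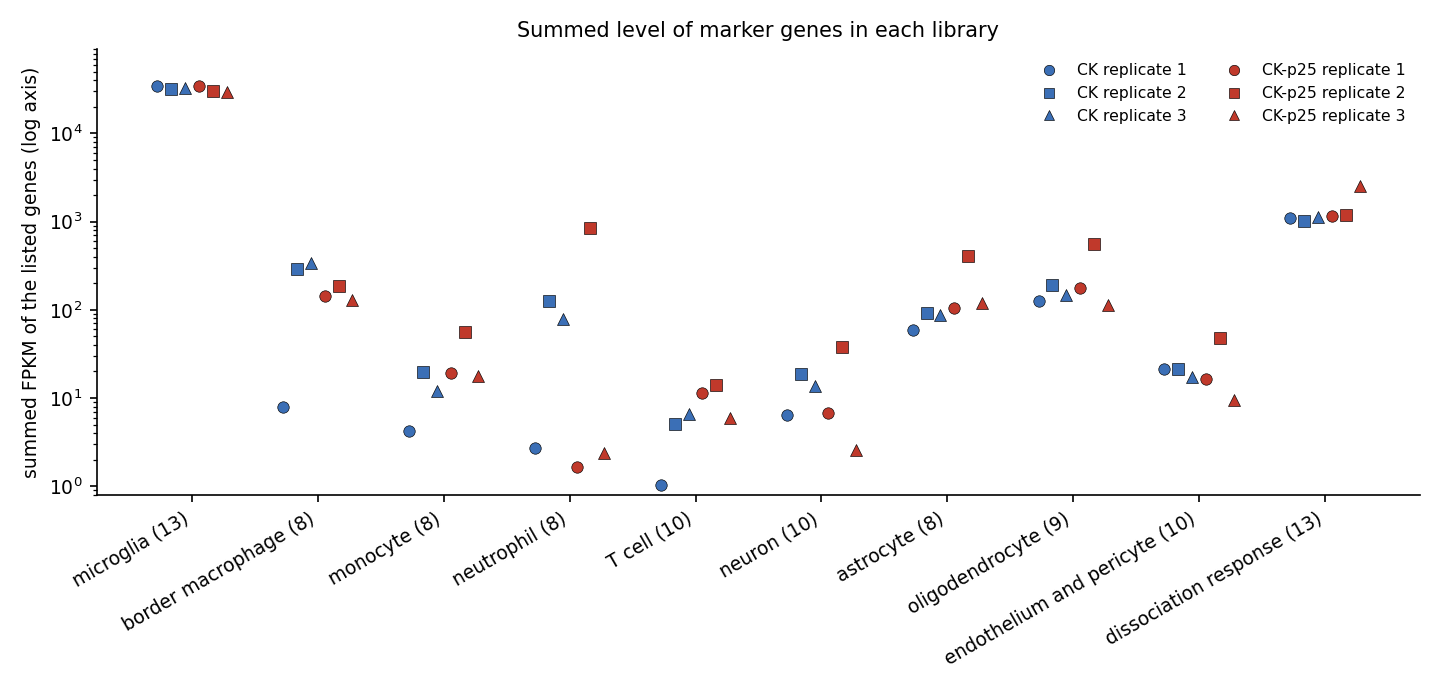
Summed FPKM (log axis) of 10 marker lists, with the number of listed genes in brackets, for each CK (blue) and CK-p25 (red) library. The microglia sums lie within 29686 to 34894 FPKM, while the border macrophage sum of CK replicate 1 and the neutrophil sum of CK-p25 replicate 2 stand apart.

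Differences between the groups were widespread. Of 10894 genes tested, those whose mean reached 1 FPKM, 1922 (17.6%) were higher and 1490 (13.7%) lower in CK-p25 at a limma adjusted p under 0.05, so 31.3% differed. More genes rose than fell at each fold: 666 genes (6.11%) rose and 281 (2.58%) fell by over 2-fold, 198 and 41 by over 4-fold, and 88 and 9 by over 8-fold. The median difference of all genes was -0.00025 on the log2(FPKM + 1) scale, on which every difference here is given and which understates the change of low genes. Every CK-p25 library lay above every CK library for 2611 genes (24.0%) and below for 2455 (22.5%). The balance depended on scaling, since higher genes were 56.3% of those called with the deposited scaling, 53.6% when the libraries were centred on their medians and 45.6% under quantile normalization. The number of lower genes was 935, 932 and 969 without CK replicate 1, 2 or 3. Gene lists below are described by the members that reached the mean of 1 FPKM, a part of each list, and a member high in CK-p25 only could reach it through that group alone. For the lists described here in which limma called none in 1 direction, the number at an unadjusted p under 0.05 in that direction was also 0, except for scavenger and TAM receptors, with 1 lower.

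**Figure D2:**
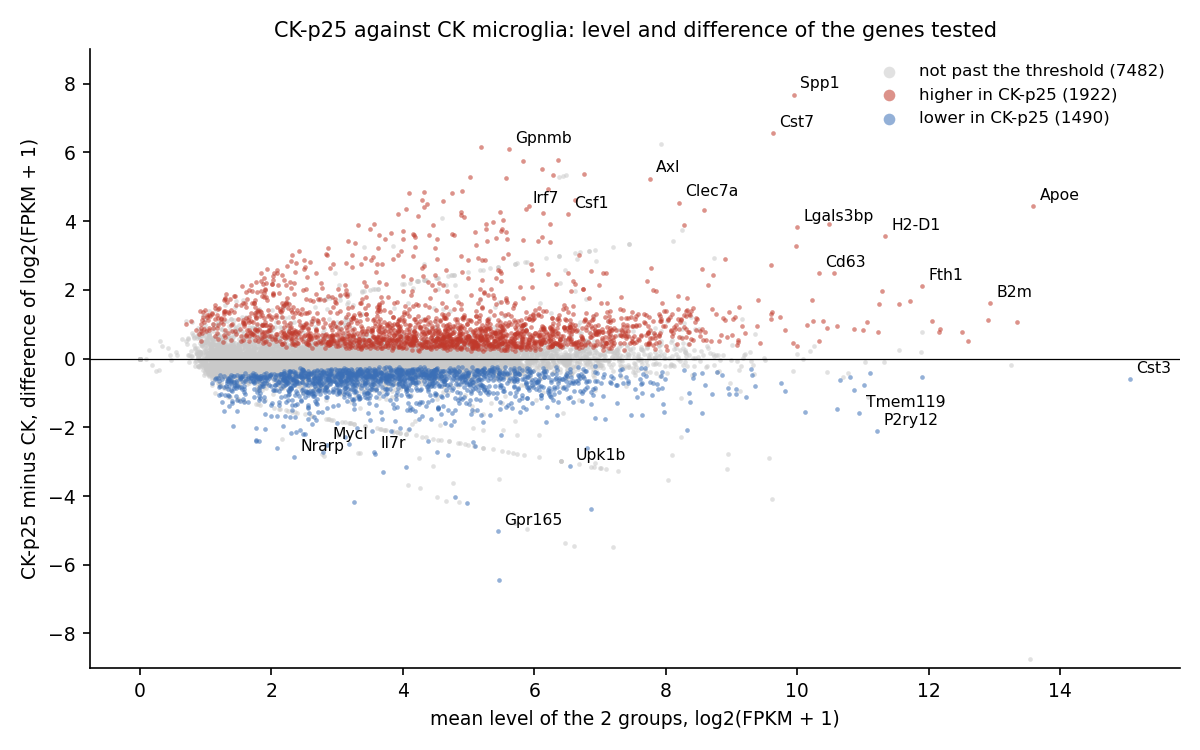
Difference between CK-p25 and CK against the mean level of the 2 groups, both on the log2(FPKM + 1) scale, for the 10894 genes tested. Red points (1922) were higher and blue points (1490) lower in CK-p25, and the largest rises reach further from 0 than most falls.

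The transcripts that gained most in absolute level belong to lipid transport, antigen presentation, complement, lysosome and iron storage. Apoe, the apolipoprotein that carries lipids between brain cells, measured 369, 1509 and 1664 FPKM in CK and 13286, 17728 and 39444 FPKM in CK-p25. Every CK-p25 library lay above every CK library, and Apoe moved from rank 41 in CK to rank 2 in CK-p25 by mean level. Its log2 difference was 4.43 ± 0.60 (adjusted p = 0.00105) and 3.73 without CK replicate 1, the library low in border macrophage markers. B2m, the light chain of class I molecules, gained a mean of 8094 FPKM. The protease gene Ctss gained 7560 FPKM, the complement gene C1qb 5793, the ferritin heavy chain Fth1 4771, the class I heavy chain H2-D1 4390 and the ferritin light chain Ftl1 3497 FPKM. Without the filter on low values, the calls of Apoe, B2m, Ctss, C1qb, Fth1 and Ftl1 were lost (adjusted p = 0.176, 0.863, 1, 0.982, 0.0757 and 0.0782). Under quantile normalization the log2 difference of Ctss was 0 against 1.08, and that of C1qb 0.28 against 1.13. The summed FPKM of a library was also higher in CK-p25, at 573405 to 650063 against 475007 to 500482 in CK.

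Among genes called lower, the largest absolute losses were in Cst3, P2ry12, Tmem119, Selplg and Csf1r. Ctsd and the microRNA gene Mir3064 had larger mean losses than Selplg and were not called. Cst3, which encodes the secreted protease inhibitor cystatin C, was the most abundant transcript of both groups and fell from 45973, 37067 and 40993 to 27988, 22860.4 and 30849 FPKM (log2 -0.61 ± 0.15, adjusted p = 0.0147). Selplg, the P-selectin ligand gene, fell from 2335, 2206 and 2301 to 873, 672 and 968 FPKM, a log2 difference of -1.46. Csf1r, the receptor that keeps microglia alive, fell by less, from 4556, 4666 and 4349.7 to 3369, 2943 and 2984 FPKM (log2 -0.55 ± 0.11). Under quantile normalization the differences of Csf1r, P2ry12 and Tmem119 were -1.26, -2.80 and -2.17, against -0.55, -2.12 and -1.58 with the deposited scaling. The CK-p25 libraries lay below all CK libraries for each of the 5 genes called. The call of Cst3 was lost under quantile normalization (adjusted p = 0.328), without any 1 CK library (0.125, 0.0759 and 0.0953 without replicates 1, 2 and 3) and without CK-p25 replicate 2 (0.074). It was also lost without the filter on low values and when only the 6 compared libraries were fitted. Ctsd is listed at 0 in CK-p25 replicates 1 and 2 and at 30706 FPKM in replicate 3, so no fold is given.

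Some genes went from near absence to a clear level. Besides a small RNA, 15 genes lay under 1 FPKM in every CK library and at 10 FPKM or more in every CK-p25 library, and none but small RNAs did the reverse. They include complement genes C3 (0.402, 0.706 and 0.428 against 41.6, 36.5 and 31.3 FPKM) and Cfb (0.418, 0.391 and 0.384 against 29.4, 17.2 and 125 FPKM), the interleukin-1 receptor antagonist gene Il1rn (0.486, 0.875 and 0.748 against 18.7, 11.6 and 19.7 FPKM), and Hpse, which encodes the matrix-degrading enzyme heparanase (0.513, 0.708 and 0.947 against 47.4, 38.04 and 30.4 FPKM). The others were Apoc1, Apoc4, Ctse, Gpnmb, Cd300lf, Cd69, Lox, Ly6i, Oasl1, Actr3b and H2-Q9. H2-Q9 has near-identical copies, and Apoc4 lies beside Apoc2, so the level of each is uncertain. Rises were ranked by log2 difference among called genes without overlap between the groups, leaving out small RNAs and unnamed gene models. The largest were in Spp1 (osteopontin, 7.68) and Cst7 (cystatin F, 6.57). Axl, the TAM receptor that binds apoptotic cells, and Itgax, the integrin CD11c, stood at ranks 11 and 12. Axl measured 7.69, 13.8 and 9.58 FPKM in CK and 419, 352 and 491 FPKM in CK-p25, and Itgax measured 3.61, 4.201 and 2.77 FPKM in CK and 202, 119 and 108 FPKM in CK-p25. Bhlhe40, a transcription factor gene of activated macrophages, rose from 0.444, 0.871 and 1.13 to 42.5, 29.9 and 39.6 FPKM. No overlap between the groups was a condition for choosing the genes given with values here, so it is not a separate result. CK-p25 replicate 3 was the highest for Cfb at 125 FPKM.

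Several of the larger falls were in receptor and regulator genes. Il7r, the interleukin-7 receptor, fell from 25.5, 15.2 and 18.6 to 2.47, 1.31 and 2.19 FPKM (log2 -2.79 ± 0.30). Siglece, an inhibitory sialic acid receptor, fell from 70.5, 75.3 and 74.8 to 15.2, 13.9 and 15.8 FPKM, and Ecscr, a surface protein gene, from 196, 184 and 191 to 27.8, 25.7 and 38.5 FPKM. Mycl, a MYC family transcription factor, measured 10.3, 11.9 and 11.3 FPKM in CK and 0.692, 1.59 and 1.18 FPKM in CK-p25. The potassium channel gene Kcnk12 fell by 2.73, the semaphorin genes Sema4b by 2.60 and Sema6d by 2.21, and the flagellin receptor gene Tlr5 by 2.20 on the log2 scale. All 3 CK-p25 libraries were below all 3 CK libraries for each, but this was a condition for choosing these genes and is not a separate result.

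Most chemokine genes tested rose. Of 31 listed chemokine genes 18 were tested, and of these 12 rose and none fell, with a median of 1.95. Ccl12, a monocyte attractant, measured 74.02, 102 and 139 FPKM in CK and 693, 473 and 1389 FPKM in CK-p25, and Ccl3 measured 49.8, 72.1 and 57.3 FPKM in CK and 305, 431 and 391 FPKM in CK-p25. Both rose (log2 2.91 ± 0.42 and 2.63 ± 0.19), and CK-p25 replicate 3 was the highest for Ccl12. Cxcl16, a membrane chemokine that also takes up oxidised lipid, rose from 35.4, 36.1 and 31.2 to 150.2, 137 and 194 FPKM, and Cxcl10, an interferon-induced T cell attractant, from 3.09, 2.55 and 7.63 to 91.1, 80.2 and 171 FPKM. Of 16 chemokine and chemoattractant receptor genes, 3 rose (Cxcr4, Ccrl2 and C3ar1) and 3 fell, among them Cx3cr1 and Cmklr1. These shares of 18.8% each were near the 17.6% and 13.7% of all genes, and limma called 1 lower without CK replicate 2 and none lower without CK replicate 3. Cmklr1 missed the threshold without CK replicate 2 or 3 (adjusted p = 0.0523 and 0.0505).

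Of 16 growth factor genes 8 rose and 2 fell, with a median of 0.73. Csf1, the ligand of the microglial survival receptor, measured 9.15, 8.01 and 7.98 FPKM in CK and 181, 173 and 162 FPKM in CK-p25. Its log2 difference of 4.20 ± 0.092 (adjusted p = 1.76e-07) stood against the fall of its receptor gene Csf1r. Igf1, insulin-like growth factor 1, rose from 0.364, 2.16 and 2.79 to 28.2, 38.6 and 18.3 FPKM and was at 3.03 without CK replicate 1. Mif rose from 91.6, 83.5 and 94.4 to 480.0, 399 and 225 FPKM, and progranulin (Grn), a lysosomal and secreted protein, from 1513, 1469 and 1457 to 2789, 2554 and 2534 FPKM. Pdgfa, Hgf, Osm and Vegfb also rose, by 0.55 to 1.19. The 2 that fell were Tgfb1 (116, 121 and 127 against 96.5, 97.7 and 89.1 FPKM) and the EGF receptor ligand Hbegf (2.06, 2.17 and 2.604 against 0.692, 0.9096 and 0.216 FPKM). CK-p25 replicate 3 was lower than its group for Igf1 and Mif and higher for Osm.

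Of 27 interleukin and receptor genes, 10 rose and 6 fell (37.0% and 22.2%, beside 17.6% and 13.7% of all genes). Il2rg, the signalling chain shared by several cytokine receptors, rose from 8.09, 8.400 and 8.76 to 122, 130.1 and 172 FPKM (log2 3.90 ± 0.27). Il1b and the interleukin-1 receptor antagonist gene Il1rn both rose, Il1b from 2.18, 6.06 and 3.98 to 22.2, 28.1 and 68.7 FPKM. The interleukin-18 binding protein gene Il18bp rose from 1.39, 2.24 and 1.54 to 16.4, 17.8 and 23.05 FPKM. Il6, in contrast to Il1b, fell from 7.83, 7.04 and 8.73 to 1.76, 1.47 and 2.81 FPKM (log2 -1.58 ± 0.21, adjusted p = 0.00105), and its receptor gene Il6ra from 73.1, 76.4 and 83.3 to 45.6, 35.01 and 42.04 FPKM. Il16, Il10ra and Il17ra fell by 1.16, 0.67 and 0.71. Of 20 TNF superfamily genes, 4 rose and 4 fell: Tnfsf8 (1.44, 0.958 and 1.02 against 25.3, 14.5 and 30.7 FPKM), Cd40, Fas and Tnfsf10 rose, and Ltb, Tnfrsf17, Tnfrsf13b and Tnfrsf1b fell, with 7 of the list lower under quantile normalization. The TNF superfamily shares of 20% each were near those of all genes. In these called genes the libraries of the 2 groups did not overlap. Without CK replicate 1, Tnfrsf17 and Tnfsf10 missed the threshold (adjusted p = 0.0604 and 0.112), as they did without CK replicate 2 (0.063 and 0.102), CK replicate 3 (0.0743 and 0.0957) or CK-p25 replicate 2 (0.0638 and 0.0988). Tnfsf10 also missed it without CK-p25 replicate 1 (0.11).

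Surface receptors for ligands on other cells changed in both directions. Among 26 Fc and paired immune receptors, 12 rose and 5 fell (46.2% and 19.2%). Among 25 checkpoint and costimulation genes, 11 rose and 4 fell (44% and 16%). Of all genes 17.6% rose and 13.7% fell, so the shares that fell were near that of all genes. Clec7a, the beta-glucan receptor Dectin-1, measured 25.6, 24.7 and 19.6 FPKM in CK and 600.2, 520.2 and 563 FPKM in CK-p25, with the CK-p25 libraries close together and far above CK. Fcgr4, an activating receptor for antibody, rose from 8.64, 10.3 and 10.2 to 74.1, 73.4 and 94.2 FPKM. The inhibitory paired receptor gene Lilrb4 rose from 4.29, 9.19 and 7.801 to 69.5, 95.3 and 96.1 FPKM. Pdcd1, which encodes the checkpoint receptor PD-1, rose from 17.2, 6.65 and 7.77 to 159.7, 82.6 and 138 FPKM, and its ligand gene Cd274 (PD-L1) from 4.35, 4.07 and 3.73 to 25.5, 25.8 and 26.3 FPKM. Lag3, Cd72, Cd83, Cd52 and Cd48 rose by 1.46 to 3.43. The sialic acid receptor Cd33 (199.9, 208 and 197 against 126, 121 and 121 FPKM), Clec4a2 and the ligand genes Cd80 and Cd276 fell, as did the checkpoint gene VISTA, named 4632428N05Rik in the table (654, 675 and 657 against 395, 386 and 224 FPKM). PD-1 and Lag3 are also genes of T cells. Of 10 T cell markers, 4 were tested and 1, Cd5, rose, with sums of 5.99 to 14.1 FPKM in CK-p25 and 1.04 to 6.65 FPKM in CK, and their part in these rises was not tested.

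Among pattern recognition receptors, Tlr2 rose and Tlr4 fell. Of 25 Toll-like receptor and adaptor genes, 7 rose and 5 fell (28% and 20%, beside 17.6% and 13.7% of all genes). The lower count was 3 without CK replicate 1, CK replicate 2 or CK-p25 replicate 2. Tlr2, the receptor for lipoproteins, rose from 97.2, 82.7 and 84.6 to 355, 329.8 and 379 FPKM and its partner Tlr1 from 17.8, 16.8 and 18.1 to 42.3, 33.4 and 46.6 FPKM. Tlr4, the endotoxin receptor, fell from 77.7, 82.8 and 79.4 to 43.1, 43.1 and 48.2 FPKM, and its cofactor Ly96 from 123, 129.7 and 131 to 91.8, 83.4 and 83.6 FPKM. The groups were apart in all 4 genes. Scavenger and TAM receptors rose in 6 of 16 cases, and none fell by limma, though 2 did under quantile normalization and 1 without CK-p25 replicate 2.

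Purinergic receptors, which sense nucleotides released by damaged cells, changed in both directions. P2ry12, the ADP receptor that guides microglial processes, measured 4301, 3673 and 3637 FPKM in CK and 983, 717 and 999 FPKM in CK-p25, and P2ry13 fell with it (log2 -1.57). The ectoenzyme gene Entpd1 fell too, from 230.3, 249.9 and 255 to 159.6, 143 and 139 FPKM. The ATP-gated channel P2rx4 rose from 45.8, 51.7 and 56.00 to 176, 151 and 199 FPKM, the adenosine receptor Adora1 from 0.827, 1.097 and 0.711 to 9.005, 7.29 and 9.91 FPKM, and P2ry14 by 1.65. In all, 4 of 16 rose and 5 fell (25% and 31.25%, beside 17.6% and 13.7% of all genes). The lower count was 8 under quantile normalization and 9 without CK-p25 replicate 3. The summed level of the list was 1898 to 2524 FPKM in CK-p25 against 6191 to 7059 FPKM in CK. Other G protein-coupled receptors also changed in both directions, with 9 of 32 higher and 11 lower (28.1% and 34.4%). Without any 1 of CK replicates 1, 2 and 3, 7 were lower. Hcar2, a receptor for hydroxybutyrate, rose from 8.200, 3.79 and 5.07 to 84.98, 50.5 and 73.9 FPKM, and the prostaglandin E2 receptor Ptger4 rose while Ptger3 fell (0.859, 1.79 and 1.56 against 26.3, 15.8 and 21.7 FPKM, and 3.43, 4.79 and 5.98 against 0.134, 0.0573 and 0 FPKM). The adhesion receptor gene Gpr56 fell by 1.26.

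**Figure D3:**
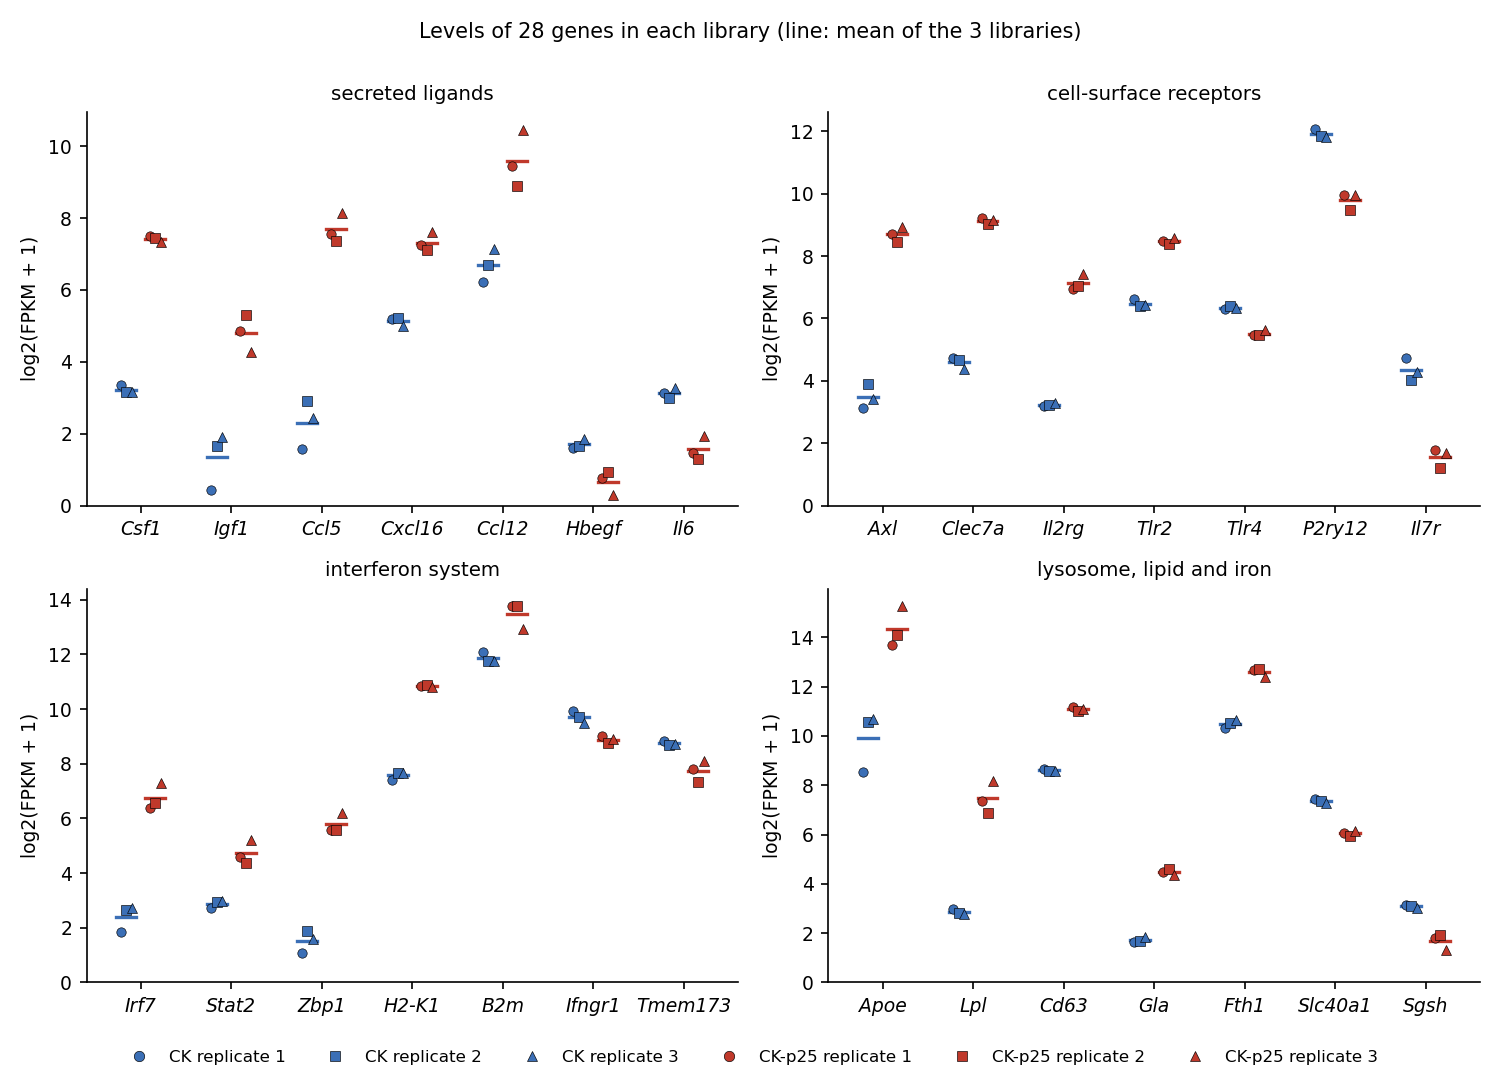
Levels of 28 genes on the log2(FPKM + 1) scale in each of the 3 CK (blue) and 3 CK-p25 (red) libraries, with a line at the mean of each group. The groups are apart for each gene, with Apoe and Igf1 lowest in CK replicate 1.

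Genes of the interferon system rose in the sensing, signalling and effector steps, while the adaptor Tmem173 and the receptor Ifngr1 fell. Of 20 cytosolic nucleic acid sensor genes, 14 rose and 1 fell (median 1.05), with 3 lower under quantile normalization and without CK-p25 replicate 3. Zbp1, a sensor of Z-form nucleic acids, measured 1.12, 2.69 and 2.003 FPKM in CK and 47.1, 46.3 and 72.7 FPKM in CK-p25. The RNA sensors Ifih1 (MDA5, 4.11, 3.42 and 3.85 against 9.79, 11.2 and 23.4 FPKM) and Ddx58 (RIG-I, 8.698, 9.97 and 10.4 against 17.6, 18.05 and 22.9 FPKM) rose by 1.62 and 0.93. The 1 that fell was Tmem173, which encodes the DNA-sensing adaptor STING, from 450.1, 411 and 427 to 224, 159.8 and 277 FPKM (log2 -0.99 ± 0.19, adjusted p = 0.00499). Ifnb1, interferon beta, was listed at 0 in CK and at 0.0856, 1.56 and 5.68 FPKM in CK-p25 and did not pass.

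Downstream of the receptors, 11 of 30 receptor, STAT, IRF and SOCS genes rose and 5 fell, or 3 without any 1 of CK replicates 1, 2 and 3. The 11 and 5 were 36.7% and 16.7%, beside 17.6% and 13.7% of all genes. Irf7, the transcription factor that amplifies interferon production, measured 2.59, 5.32 and 5.56 FPKM in CK and 82.6, 93.7 and 156 FPKM in CK-p25. Stat2 rose from 5.55, 6.65 and 6.796 to 23.3, 19.7 and 36.1 FPKM, and Irf9, its DNA-binding partner, by 0.80. Usp18, which restrains the interferon receptor, rose from 4.59, 4.88 and 7.09 to 88.5, 85.6 and 225 FPKM. CK-p25 replicate 3 was highest for each of these genes, and without it Irf7 was higher by 4.07 (adjusted p = 0.000137). Ifngr1, the interferon gamma receptor, fell from 966, 829 and 715 to 516, 428 and 478 FPKM, and Irf5 and Irf4 fell by 0.51 and 1.05. Among 15 guanylate-binding and immunity-related GTPases, 9 rose and 1, Irgm2, fell (37.96, 53.8 and 52.1 against 33.1, 22.5 and 20.2 FPKM), with 2 lower without CK-p25 replicate 3.

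Genes of class I antigen presentation rose, from peptide production to surface molecule. Of 20 genes, 14 rose and 1, the lipid-presenting Cd1d1, fell (median 1.15). H2-K1 measured 169.6, 203 and 200.3 FPKM in CK and 1844, 1869 and 1793 FPKM in CK-p25, and the CK-p25 libraries lay close together. Class I heavy chains share sequence, so reads can be split among them. The immunoproteasome subunits Psmb8 (136, 136 and 149 against 349, 276 and 389.9 FPKM) and Psmb9 and the proteasome activators Psme1 and Psme2 rose by 1.06 to 1.40. The constitutive proteasome did not follow to the same extent, with 6 of 32 subunits higher (18.8%, near the 17.6% of all genes) and a median of 0.19, and under quantile normalization 1 was higher and 3 lower. The higher count was 2, 1 and 1 without CK replicates 1, 2 and 3 and 3 without CK-p25 replicate 1, and 2 were lower without CK-p25 replicate 3. B2m rose from 4364, 3468 and 3495 to 13899.9, 13903 and 7807 FPKM, lowest in CK-p25 replicate 3.

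The promoters of the genes tested were searched for 7 motifs in RefSeq sequence (GRCm38.p6), from 250 bases before to 50 after each start, available for 8566 of the genes tested. A gene was counted as holding a motif when any of its promoters did. The core motif of interferon-stimulated response elements (GAAA, any 2 bases, then GAAA, on either strand) was present in 327 of 8566 genes (3.82%). It was present in 6.53% of the genes called higher, 10.49% of those higher by over 2-fold and 10 of 59 (16.95%) higher by over 8-fold. Among lower genes it was present in 2.68%, and in 3.33% of genes not called. The AP-1 motif TGANTCA was present in 5.91% of all, 8.34% of higher, 6.21% of lower genes and 14 of 59 (23.7%) higher by over 8-fold. The PU.1 motif GAGGAAGT was present in 4.11% of all, 4.72% of higher and 4.53% of lower genes. The kappaB motif (GGG, any 2 bases, then TTTCC), the lysosomal CLEAR motif TCACGTGA, which contains the E-box CACGTG, and the ATF4 motif TGATGCAA were present, in the order kappaB, CLEAR, E-box and ATF4, in 2.03%, 2.40%, 12.27% and 0.747% of all. They were in 2.65%, 3.49%, 13.97% and 1.10% of higher genes, in 2.18%, 2.60%, 12.67% and 0.419% of lower genes, and in 4.08%, 2.33%, 11.84% and 1.75% of genes higher by over 2-fold. Of the 59 genes higher by over 8-fold, 3 held the PU.1 motif, 3 the kappaB motif, 1 the ATF4 motif, and 0 the CLEAR motif or the E-box. Over all 32851 promoters in the RefSeq table, counted per promoter, the interferon motif was present in 3.44% and the AP-1 motif in 7.81%. The unit differs from that of the gene shares above. These shares are descriptions with no test, and a match is not a measured binding site.

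The stretches below lie before the start of 6 genes that rose and show the interferon motif, or its reverse complement, in capitals. Where a gene holds several matches 1 is shown.
Ifit1 (GRCm38.p6 chr19:34640760-34640819, plus strand): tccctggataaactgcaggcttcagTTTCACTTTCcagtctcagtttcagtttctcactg
Ifit3 (GRCm38.p6 chr19:34583348-34583407, plus strand): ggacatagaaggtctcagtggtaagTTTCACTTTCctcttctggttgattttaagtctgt
Rsad2 (GRCm38.p6 chr12:26456538-26456597, minus strand): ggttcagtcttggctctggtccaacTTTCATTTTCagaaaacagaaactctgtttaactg
Cxcl10 (GRCm38.p6 chr5:92349068-92349127, minus strand): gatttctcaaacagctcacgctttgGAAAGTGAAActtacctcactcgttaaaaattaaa
Cybb (GRCm38.p6 chrX:9469325-9469384, minus strand): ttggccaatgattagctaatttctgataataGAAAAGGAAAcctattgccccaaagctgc
B2m (GRCm38.p6 chr2:122147523-122147582, plus strand): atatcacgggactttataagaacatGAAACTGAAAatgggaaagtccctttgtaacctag
The next stretches lie before the start of genes that rose by over 8-fold and show the AP-1 motif in capitals.
Itgax (GRCm38.p6 chr7:128129467-128129526, plus strand): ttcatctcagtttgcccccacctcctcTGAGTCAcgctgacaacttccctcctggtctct
Il1rn (GRCm38.p6 chr2:24336692-24336751, plus strand): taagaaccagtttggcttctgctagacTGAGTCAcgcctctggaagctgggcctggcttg
Plaur (GRCm38.p6 chr7:24462387-24462446, plus strand): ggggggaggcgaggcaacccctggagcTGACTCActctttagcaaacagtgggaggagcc
Igf1 (GRCm38.p6 chr10:87861047-87861106, plus strand): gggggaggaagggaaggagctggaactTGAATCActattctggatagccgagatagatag

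The values of the genes shown were as follows. Ifit1, whose product binds viral RNA, measured 0.985, 0.939 and 2.03 FPKM in CK and 14.3, 19.1 and 64.1 FPKM in CK-p25. Its neighbour Ifit3, which has a near-identical copy and so an uncertain level, measured 2.801, 2.66 and 5.21 FPKM in CK and 45.8, 50.7 and 118 FPKM in CK-p25. Rsad2 (viperin), an antiviral enzyme, measured 0.451, 0.763 and 1.35 FPKM in CK and 16.3, 18.2 and 31.4 FPKM in CK-p25, and Cybb, the oxidase subunit NOX2, 2.72, 14.8 and 12.1 FPKM in CK and 82.2, 88.5 and 133 FPKM in CK-p25. Every CK-p25 library lay above every CK library in these genes, and CK replicate 1 was the lowest for Cybb. Plaur, the urokinase receptor gene, rose from 4.91, 5.96 and 6.21 to 73.1, 52.3 and 107 FPKM. Of 19 AP-1 and immediate early genes, 6 rose and 1, Mafg, fell (31.6% and 5.26%, beside 17.6% and 13.7% of all genes). The lower count was 0 without CK replicate 2 or 3, 2 without CK-p25 replicate 2, 3 without CK-p25 replicate 3, and 2 and 3 under median centring and quantile normalization. Atf3 rose from 10.7, 13.8 and 13.3 to 52.1, 57.2 and 102 FPKM and Maff from 0.0867, 0.2802 and 0.0322 to 2.67, 3.55 and 1.97 FPKM. Dusp1 and Ier2 did not pass at 61.04, 59.02 and 66.6 against 91.3, 112 and 324 FPKM and 54.9, 54.9 and 64.7 against 82.6, 79.5 and 277 FPKM, highest in CK-p25 replicate 3, as were the dissociation response genes, whose part in this list was not tested.

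Most lysosomal and lipid genes tested rose. Of 31 lysosomal hydrolase genes, 22 rose and 2 fell (median 0.78), and of 29 lysosomal membrane and proton pump genes, 19 rose and none fell (median 0.56), though 3 fell under quantile normalization and 1 without CK-p25 replicate 1. Gla, alpha-galactosidase A, measured 2.09, 2.25 and 2.54 FPKM in CK and 21.1, 23.1 and 19.6 FPKM in CK-p25, and Glb1, beta-galactosidase, measured 56.4, 41.9 and 47.2 FPKM in CK and 155, 144 and 129 FPKM in CK-p25. Cd63, a tetraspanin of late endosomes, rose from 403, 386 and 382 to 2342, 2056 and 2173 FPKM, and Lamp1 from 865, 865 and 835 to 1823, 1819 and 1824 FPKM. The proton pump subunits Atp6v1a and Atp6v1b2 rose by 1.02 and 1.01, and Atp6v0d2, a subunit of osteoclasts and foamy macrophages, from 0.0201, 0.0865 and 0.134 to 4.45, 5.92 and 6.39 FPKM. Npc2, which hands cholesterol to Npc1, rose from 128, 114 and 119 to 387, 354 and 369.6 FPKM, with Npc1 at 31.6, 29.7 and 32.1 against 32.4, 26.5 and 21.1 FPKM and not past the test. The exceptions were Sgsh, heparan sulfamidase (7.91, 7.59 and 7.05 against 2.48, 2.79 and 1.47 FPKM), and Pla2g15, which fell. Of 16 tested cathepsin and cystatin genes, 10 rose, among them the cystatin gene Cst7. Others that rose were Ctsb (1056, 1015 and 996 against 4038, 4013 and 3963 FPKM), Ctsl, Ctsz and Ctss, while Cst3 and the legumain gene Lgmn fell. Lgmn missed the threshold without CK replicate 1 (adjusted p = 0.1), CK replicate 2 (0.0574), CK replicate 3 (0.0627), CK-p25 replicate 1 (0.0647) or CK-p25 replicate 2 (0.0766), and neither gene was called lower without any 1 CK library or CK-p25 replicate 2. Cst3 and Lgmn were also not called lower without the filter on low values or when only the 6 compared libraries were fitted. The groups did not overlap in any of the called genes named here.

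Lipid genes followed in 16 of 26 cases, with 1 lower, Mylip, which was not called without CK replicate 1, 2 or 3 or CK-p25 replicate 2 (adjusted p = 0.129, 0.111, 0.0981 and 0.0815), and 2 were lower under quantile normalization. Lpl, lipoprotein lipase, measured 6.85, 6.06 and 5.91 FPKM in CK and 164, 117 and 286 FPKM in CK-p25, and Fabp3, a fatty acid carrier, 0.317, 1.14 and 1.18 FPKM in CK and 54.1, 52.3 and 46.6 FPKM in CK-p25. Ch25h, the enzyme of 25-hydroxycholesterol, rose from 0.924, 1.86 and 1.57 to 110.0, 89.6 and 76.2 FPKM. The lipid droplet protein gene Plin2 (18.03, 21.9 and 21.6 against 61.3, 66.4 and 60.9 FPKM) and the cholesterol ester genes Soat1 and Nceh1 rose by 1.58 to 2.86. Abca1, the cholesterol exporter, did not pass at 51.7, 65.4 and 56.1 against 96.1, 115 and 20.8 FPKM, low in CK-p25 replicate 3, and rose without that library (log2 0.86, adjusted p = 0.00236). Cholesterol synthesis genes rose in 3 of 20 cases and fell in none, a share near that of all genes, with 6 higher and 1 lower without CK-p25 replicate 3 and 1 lower under quantile normalization.

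Genes of iron storage and oxidant production rose, while the iron exporter gene fell. Fth1 measured 1270.4, 1477 and 1587 FPKM in CK and 6584, 6643 and 5419 FPKM in CK-p25, and Ftl1 rose from 1542, 1570.1 and 1693 to 5078, 5131 and 5088 FPKM. Slc40a1, ferroportin, the iron exporter, fell from 176, 164 and 155 to 66.4, 60.4 and 70.6 FPKM (log2 -1.31 ± 0.30, adjusted p = 0.012), and the transferrin receptor Tfrc fell from 5.81, 6.91 and 5.81 to 5.197, 4.53 and 4.37 FPKM. Ncoa4, which delivers ferritin to the lysosome, fell from 72.6, 83.00 and 84.1 to 46.7, 52.2 and 49.2 FPKM, and Hmox1, heme oxygenase, rose from 21.8, 30.8 and 26.2 to 81.3, 73.97 and 67.96 FPKM. The groups were apart in each gene. Tfrc was borderline (adjusted p = 0.0471), missing the threshold without any 1 CK library (0.079, 0.159 and 0.0828 without replicates 1, 2 and 3) and without CK-p25 replicate 2 or 3 (0.1 and 0.0625). Ferritin genes have processed pseudogenes, so their levels are uncertain. Of 28 oxidant production and defence genes, 16 rose and 2 fell, with 9 higher under quantile normalization. Gclc and Gclm, the subunits that make the first step of glutathione synthesis, were the 2 that fell, Gclc missing the threshold without CK replicate 2 or 3 or CK-p25 replicate 1 (adjusted p = 0.063, 0.0674 and 0.0554).

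Most translation and energy genes tested rose, by moderate amounts. Cytosolic ribosomal protein genes were higher in 64 of 79 cases and lower in none, with a median of 1.11. Rpl3 measured 109.9, 111 and 129 FPKM in CK and 308, 298 and 255 FPKM in CK-p25, Rpl4 rose from 101, 104 and 110.4 to 247, 241 and 224 FPKM, and Rpl6 from 41.3, 35.9 and 42.7 to 101, 96.3 and 90.5 FPKM. The summed level was 7614 to 9002 FPKM in CK, 23955 and 21033 FPKM in CK-p25 replicates 1 and 2 and 12001 FPKM in replicate 3. Without replicate 3, 76 of 79 were higher, and under quantile normalization 56 were, with a median of 0.86. Many of these genes have processed pseudogenes, so counts of single members are uncertain.

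Respiratory chain subunits were higher in 24 of 36 genes of complex I and 32 of 43 of complexes II to V, with none lower and medians of 0.52 and 0.63. Ndufa1 rose from 143, 117 and 136 to 415, 407 and 200.4 FPKM (adjusted p = 0.0119, and 0.0523 without CK replicate 2), and Cox4i1 from 216, 210.5 and 236 to 529, 504 and 439 FPKM. Cox6a2, an isoform known from muscle, rose from 2.13, 1.42 and 2.03 to 171, 156 and 78.7 FPKM. The count for complex I was 12 without CK replicate 2. The count for complexes II to V was 15 under quantile normalization, 21 without CK replicate 1, 17 without CK replicate 2, 19 without CK-p25 replicate 1 and 39 without CK-p25 replicate 3. Glycolysis and pentose phosphate genes were higher in 18 of 23 cases (median 0.82), or 11 without CK replicate 2. Pkm, pyruvate kinase, measured 148, 147 and 142 FPKM in CK and 516, 495 and 474 FPKM in CK-p25, and Hk1, a hexokinase, was the 1 that fell, from 11.5, 14.4 and 12.7 to 8.46, 9.95 and 7.52 FPKM (adjusted p = 0.0117, and 0.0524 without CK replicate 2). Hif1a, which controls glycolytic genes, rose from 46.6, 48.3 and 39.9 to 219, 243 and 153 FPKM, and 6 of 17 HIF target genes rose, with Egln3 at 0.466, 0.583 and 0.499 against 8.35, 5.91 and 9.03 FPKM. The 1 that fell was Ddit4, an inhibitor of mTORC1 (2.33, 5.000 and 7.15 against 1.28, 1.298 and 0.905 FPKM), with none of the list lower without CK replicate 2 or 3. Genes of the TCA cycle and fatty acid oxidation rose in 8 of 21 cases, led by the itaconate enzyme gene Irg1 (0.116, 0.0625 and 0.0216 against 3.86, 2.33 and 5.18 FPKM).

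**Figure D4:**
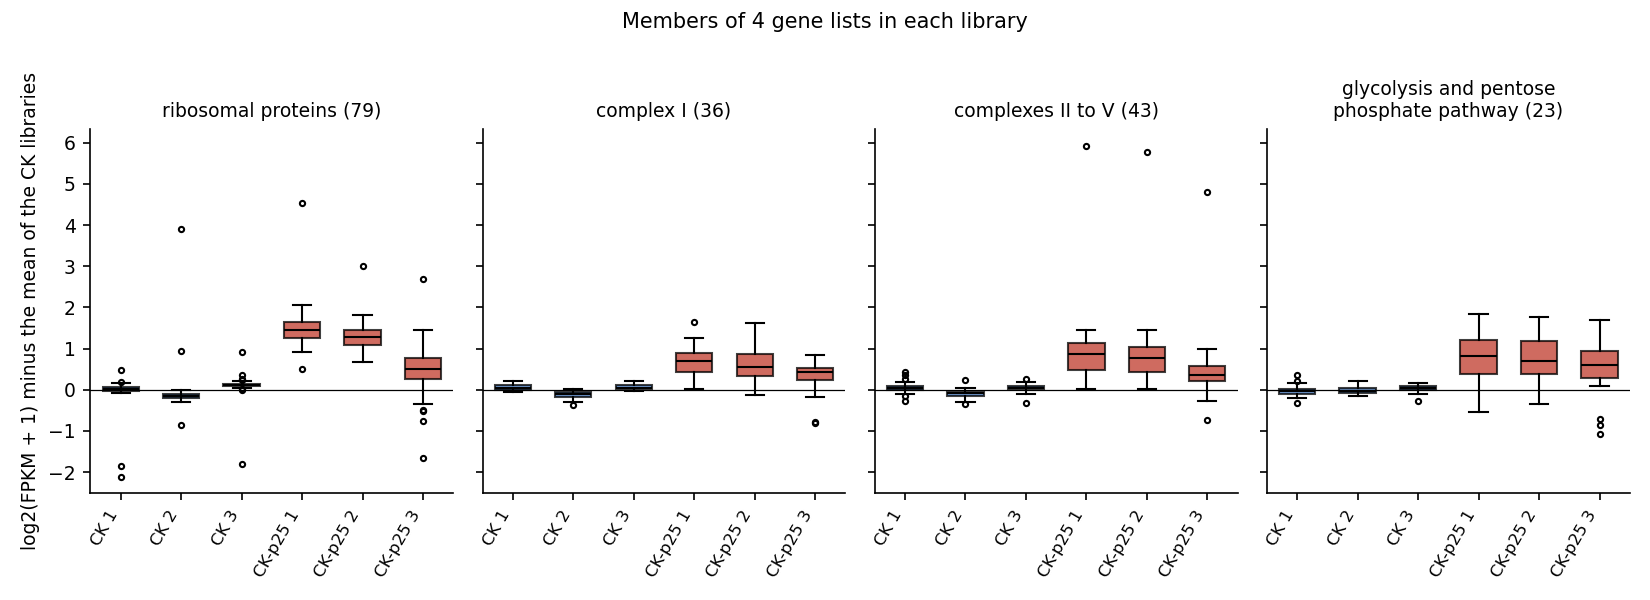
Members of the ribosomal protein, complex I, complexes II to V, and glycolysis and pentose phosphate lists in each library, as log2(FPKM + 1) minus the gene's mean in CK. Boxes span the quartiles, lines mark medians, whiskers reach 1.5 times the box and points lie beyond. CK-p25 replicate 3 lies closer to the CK libraries for the ribosomal list than replicates 1 and 2.

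Few proliferation genes were called higher. Of 31 DNA replication genes 1 rose (Pcna) and 3 fell (3.23% and 9.68%, both under the 17.6% and 13.7% of all genes). The lower count was 1 without CK replicate 1 or CK-p25 replicate 1 and 6 without CK-p25 replicate 3, and 2 were higher without CK-p25 replicate 1 or 3. Of 17 mitosis genes 1 rose (Cdk1) and 6 fell, with a median of -0.54. All 17 were low, and none reached a mean of 5 FPKM over the libraries of the model. Ccna2, cyclin A2, measured 6.01, 4.804 and 5.17 FPKM in CK and 2.79, 3.25 and 3.09 FPKM in CK-p25, and Prc1, a spindle midzone protein gene, fell from 4.02, 3.58 and 2.93 to 1.55, 1.49 and 1.403 FPKM. The count of lower mitosis genes was 3 without CK replicate 1 or CK-p25 replicate 2. Cdk1 missed the threshold without CK replicate 2 or 3 or CK-p25 replicate 1 (adjusted p = 0.067, 0.0617 and 0.0538). It was also not called without the filter on low values or when only the 6 compared libraries were fitted. Cdkn1a, the p21 cell cycle inhibitor and p53 target, rose from 15.8, 14.6 and 13.04 to 27.98, 27.7 and 33.2 FPKM, and Bax, a p53 target of apoptosis, from 32.2, 29.3 and 33.1 to 61.4, 54.5 and 59.6 FPKM.

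More TGF-beta and Notch signalling genes fell than rose. Of 24 TGF-beta receptor and Smad genes, 11 fell and 3 rose (median -0.38), with 7 lower without CK replicate 2 and 5 higher without CK-p25 replicate 3. Tgfbr1 fell from 846, 837 and 724 to 472, 472 and 229 FPKM (log2 -1.11 ± 0.26, adjusted p = 0.0126, and 0.0511 without CK replicate 2), and Smad3, its signal carrier, from 36.01, 28.9 and 29.1 to 16.6, 16.6 and 10.2 FPKM. Eng, the coreceptor endoglin, fell from 41.2, 38.9 and 37.3 to 16.01, 16.4 and 19.3 FPKM, and Bambi, a pseudoreceptor that blocks the pathway, rose from 0.6102, 0.432 and 0.255 to 2.99, 2.73 and 2.62 FPKM. CK-p25 replicate 3 was the lowest library for Tgfbr1 and Smad3, and without it the differences were -0.76 and -0.87. Of 22 Notch pathway genes, 10 fell and 3 rose (median -0.53), with 5 higher without CK-p25 replicate 3. Among the 16 whose mean reached 5 FPKM, 4 fell and the median was 0.05, so the lower median of the list depended on its low members. The target genes Hes1 and Nrarp fell from 5.21, 5.86 and 6.93 to 1.09, 2.08 and 0.645 FPKM and from 8.98, 6.73 and 8.06 to 0.143, 0.5698 and 0 FPKM, and the modifier Lfng from 43.8, 39.2 and 36.5 to 17.9, 15.99 and 13.3 FPKM. The 3 that rose were the gamma-secretase genes Psen2 and Ncstn, and Dtx3. Dtx3 missed the threshold without CK replicate 2 or 3 or CK-p25 replicate 2 (adjusted p = 0.0904, 0.0961 and 0.0743), and Ncstn under quantile normalization (0.231).

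Of 38 myeloid transcription factor genes, 8 rose and 10 fell (21.1% and 26.3%, beside 17.6% and 13.7% of all genes). Egr2, a factor also induced early after stimulation, rose from 3.34, 5.58 and 5.36 to 25.1, 20.2 and 38.8 FPKM, highest in CK-p25 replicate 3. Mef2a, a factor of mature microglia, fell from 133, 143 and 129.6 to 80.3, 75.8 and 54.7 FPKM, Cebpd from 44.6, 37.2 and 37.8 to 12.3, 12.01 and 15.9 FPKM, and the MiT family factor Tfe3 from 68.03, 69.3 and 66.6 to 56.5, 48.6 and 47.9 FPKM. Of 16 ETS family genes none rose and 6 fell, among them Ets1 (55.4, 47.9 and 39.5 against 13.6, 23.4 and 10.1 FPKM), Fli1 (81.2, 96.1 and 89.9 against 56.1, 50.7 and 42.5 FPKM) and Etv5, with a median of -0.35. Of 20 NF-kB genes 7 rose and 3 fell (35% and 15%), or 1 fell without CK replicate 1 or 2. Nfkb2 and Relb, of the noncanonical branch, rose from 8.08, 8.77 and 9.09 to 20.3, 20.8 and 22.3 FPKM and from 12.7, 12.5 and 13.3 to 29.9, 25.96 and 36.02 FPKM, while Nfkb1 fell from 37.6, 36.6 and 38.9 to 18.01, 15.99 and 21.8 FPKM. Rela did not pass at 74.8, 73.8 and 73.5 against 72.6, 69.2 and 69.1 FPKM.

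Genes of the extracellular matrix and adhesion also changed. Of 28 matrix proteases, inhibitors and matrix proteins, 13 rose and 5 fell (46.4% and 17.9%), with 8 higher without CK-p25 replicate 2. Mmp12, macrophage elastase, measured 0.393, 0.613 and 1.09 FPKM in CK and 5.64, 4.18 and 6.405 FPKM in CK-p25, and the protease inhibitor genes Serpine2 and Timp2 rose from 463, 429.8 and 417 to 1119, 1142 and 1119 FPKM and from 294, 274 and 265 to 731, 725 and 687 FPKM. Tgm2, tissue transglutaminase, and Sparc fell from 54.7, 48.5 and 48.3 to 18.8, 16.8 and 15.8 FPKM and from 2177, 1817 and 1867 to 1331, 1179.7 and 1302 FPKM. Of 19 integrins and adhesion receptors 8 rose and 4 fell (42.1% and 21.1%, beside 17.6% and 13.7% of all genes), or 2 fell without CK replicate 1 or 2. Itgb2 was higher (291, 285 and 274 against 501, 442 and 529 FPKM) and Itga9 lower (18.8, 23.3 and 23.7 against 5.01, 4.83 and 3.36 FPKM). Of 17 galectin and glycan enzyme genes, 8 rose and 2 fell. Lgals3bp, whose product binds galectin-3, rose from 135, 138 and 130.0 to 1964, 1778 and 1978 FPKM, and Lgals3 rose by 3.70. The 2 that fell, St3gal5 (153, 148 and 143 against 61.4, 61.3 and 62.98 FPKM) and St3gal6, add sialic acid to glycolipids and glycoproteins. The groups did not overlap for any called gene of this paragraph.

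**Figure D5:**
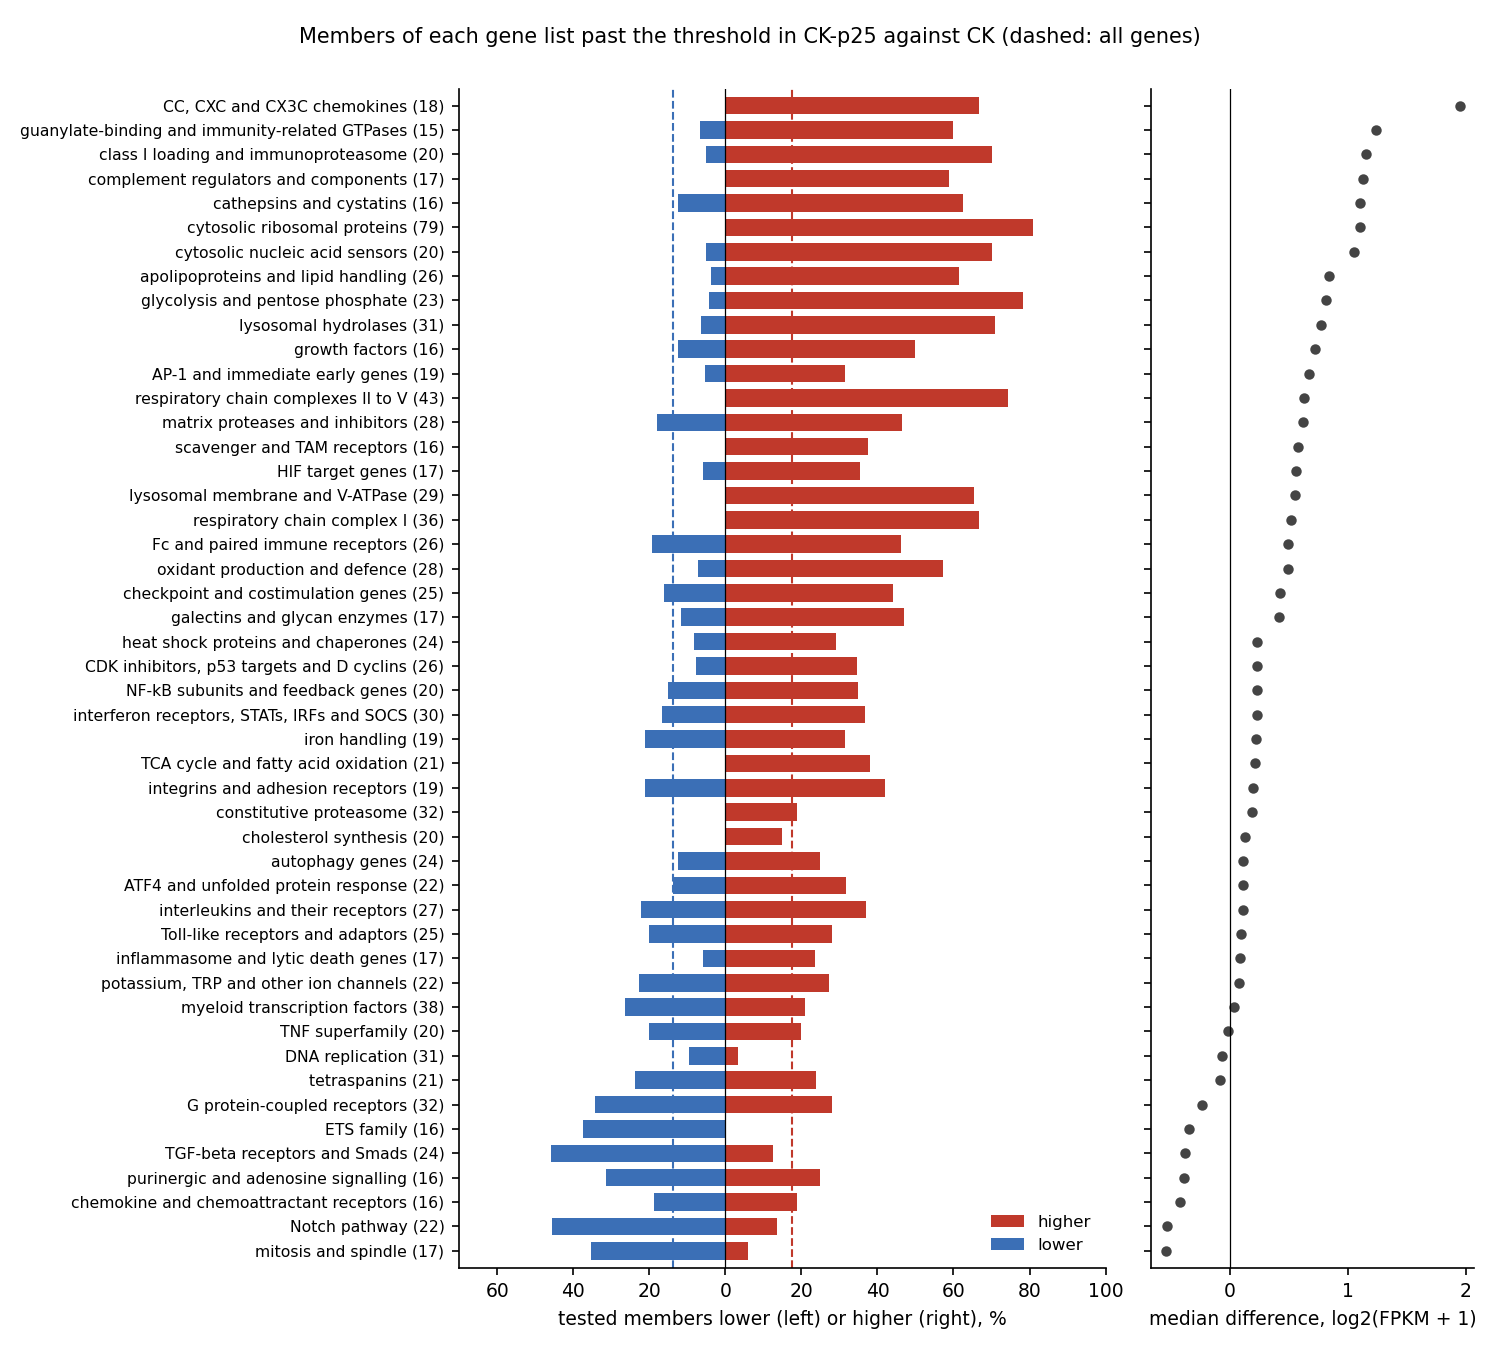
Left, percent of tested members (number in brackets) of each of 48 gene lists that were higher (red) or lower (blue) in CK-p25, with dashed lines at the 17.6% and 13.7% of all genes. Right, the median difference of the list on the log2(FPKM + 1) scale, from 1.95 for chemokines to -0.54 for mitosis.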

How the data were processed

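RNA of sorted hippocampal microglia was sequenced after SMART-Seq v4 amplification and Nextera XT library preparation, per the labels' protocols. The authors deposited FPKM values per gene. The submitters' processing notes name TopHat, Bowtie, Cufflinks 2.0.0 and mm9. Neither step marks strand, so overlapping antisense genes cannot be told apart, and with no counts the depth is unknown, so no counting interval is given.

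Samples were grouped by their labels. The members and gene lists were chosen with earlier results of these data known. Values were log2(FPKM + 1), for the 10894 genes whose mean over the table reached 1 FPKM. The 9 libraries of the 4.5-month table entered 1 limma 3.58.1 model (R 4.3.3) with a trend in the spread, and p-values were adjusted by Benjamini-Hochberg, with a threshold of 0.05. The model was tested on simulated data. Genes named were the sort and target checks, the 30 largest rises and falls, the 15 most abundant, those absent in 1 group, and up to 6 members of a list. The others were chosen after their values were seen, and some genes that the rule names are not reported here. Each result was recomputed under 16 other settings, and 1 more was chosen after seeing the data.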

Additional observations from a re-analysis of the deposited data

How the results depend on the processing

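The number of higher genes stayed within 1385 to 2376 across 16 other settings, and that of lower genes within 932 to 2177. Leaving out 1 library in turn gave 1385 to 2376 higher and 932 to 2177 lower genes. Only 932 to 969 lower genes were called when any 1 CK library was left out, and 2736 without CK-p25 replicate 3 under quantile normalization, an alternative chosen after seeing the data. The replicate numbers did not pair the samples: the deviations of same-numbered CK and CK-p25 libraries correlated at 0.030, 0.103 and 0.035 across genes. With the replicate number as a block, 1903 genes were higher and 1404 lower. Of the genes named, 198 of 225 called kept their call under each of the 16 settings that tested them. The direction of Spi1, which did not pass, turned under quantile normalization (-0.389), without CK replicate 2 (-0.0226), without CK-p25 replicate 3 (-0.103) and without that replicate under quantile normalization (-0.541). Leaving out 1 library in turn gave -0.103 to 0.156 for Spi1 and -0.346 to 0.861 for Abca1, which turned under quantile normalization (-0.0807) and without CK-p25 replicates 1 or 2 (-0.218 and -0.346). The causes were not tested. Precision is limited by 3 libraries per group and by an unknown depth.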

Other observations

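Of 22 tested genes of ATF4 and the unfolded protein response, 7 rose and 3 fell (6 fell under quantile normalization), or 31.8% and 13.6%, beside 17.6% and 13.7% of all genes. The rises included enzymes of serine and asparagine synthesis that ATF4 induces. Psat1 rose from 15.7, 12.3 and 14.6 to 61.8, 81.9 and 34.02 FPKM, and Asns from 0.294, 0.461 and 0.567 to 2.08, 4.31 and 3.696 FPKM. The stress factor Ddit3 rose from 14.2, 14.01 and 12.9 to 28.3, 31.7 and 47.8 FPKM, while Xbp1, the factor of the IRE1 branch, fell from 208, 191 and 199 to 139, 123 and 149 FPKM. In all 4 genes the libraries of the groups were apart. Of 24 chaperone genes 7 rose (4 under quantile normalization) and 2 fell, or 1 without CK replicate 1, CK replicate 3, CK-p25 replicate 2 or CK-p25 replicate 3. The 7 and 2 were 29.2% and 8.33% of the genes tested in this list. The mitochondrial chaperones Hspe1, Hspd1 and Hspa9 rose by 0.91, 0.67 and 0.73.

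Of 22 ion channel genes 6 rose and 5 fell (27.3% and 22.7%, beside 17.6% and 13.7% of all genes). Without any 1 of CK replicates 1, 2 and 3, 3 fell. The potassium channel gene Kcnj2 rose from 14.6, 12.7 and 10.1 to 84.7, 58.5 and 30.3 FPKM, and the proton channel gene Hvcn1 from 55.2, 56.3 and 53.7 to 96.6, 80.8 and 114 FPKM. Of 21 tetraspanins 5 rose and 5 fell (23.8% each, beside 17.6% and 13.7% of all genes), with 9 lower under quantile normalization. Cd9 rose from 1361, 1076 and 1162 to 4193, 3349 and 3368 FPKM, and the uroplakin gene Upk1b fell from 181, 139 and 173 to 14.2, 11.8 and 32.3 FPKM. In these 4 genes every CK-p25 library lay on 1 side of every CK library. Of 24 autophagy genes 6 rose and 3 fell (25% and 12.5%, near the 17.6% and 13.7% of all genes), and limma called 0 lower without CK replicate 1, 2 or 3. Optn, a receptor that links cargo to the autophagosome, rose from 1.11, 1.15 and 1.44 to 6.12, 8.63 and 9.197 FPKM, and Becn1 from 31.3, 29.4 and 29.5 to 57.6, 58.9 and 64.5 FPKM, again with no overlap.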
